A study of Mus musculus with 574 samples.

Results

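The mitosis and G2/M genes are 43 genes named in a list, all of which are rows in both expression tables of the series, out of 22331 genes that the tables share. They were followed across mouse ventral midbrain libraries of embryonic days E10.5 to E13.5, as levels in 24 pools of 100 cells and as a per-cell mean in 550 single cells. Every embryo was a C57BL/6 mouse heterozygous for Lmx1a-EGFP, a reporter in which green fluorescent protein (GFP) marks cells that have used the Lmx1a gene, so control and marked cells carried the same allele. The pools form 4 groups of 6, GFP positive and GFP negative cells of each end stage, E10.5 and E13.5. The single cells come from E10.5, E11.5 (90 cells), E12.5 and E13.5, and their labels give no GFP class. No label names an embryo or a litter, so p-values over pools measure the spread between pools, which may be technical, and the cells of a stage count as 1 sample.

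A dividing cell passes from DNA replication (S phase) through the G2 gap into mitosis (M). Cyclin B with the kinase Cdk1 starts mitosis, the kinetochore and spindle proteins attach and move the chromosomes, and the anaphase-promoting complex with Cdc20 then ends it by marking cyclin B and other proteins for breakdown. Transcripts of these genes build up in G2 and M and are low in cells that have left the cycle. In the ventral midbrain, progenitors divide next to the ventricle and leave the cycle as they become neurons, among them dopamine neurons of the Lmx1a lineage.

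The promoters of these genes are shown first because the members fell together with stage. Many promoters of this class are known to hold a cell cycle homology region (CHR), a short A/T-rich element bound by the DREAM and MuvB complexes, together with CCAAT boxes bound by NF-Y. RefSeq promoter windows on GRCm38.p6, running from 250 bases before to 50 bases after the annotated start, were found by symbol for 38 of the 43 members. A CHR, taken as TTTGAA or TTTAAA on either strand, was in the window of 32 of these 38 genes (84.2%), against 30.6% of 27025 genes with a window. A CCAAT box (CCAAT on either strand) was in 29 (76.3%) against 41.1% of all genes, and 2 or more boxes were in 21 (55.3%) against 13.3%. Both elements were in 27 (71.1%) against 12.2%. The E2F site, searched as TTCCCGC or TTCGCGC or TTGCCGC or TTGGCGC on either strand, was in 6 (15.8%) against 10.9%. It overlaps a CCAAT box where TTGGCGC lies on the opposite strand, as in Ccnb1. Of 48 other mitosis genes with a window, 56.2% held a CHR, 43.8% held both elements and 35.4% held an E2F site. A match is a description of these letters and not evidence of binding.

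The windows of 6 members are printed from 170 bases before to 30 bases after the start, 5′ to 3′ on the gene's strand, with each match in capitals. ATTGG is a CCAAT box and TTCAAA a CHR read on the other strand. Ccnb1 (chr13:100786457-100786656, minus strand), Ccnb2 (chr9:70421525-70421724, minus strand), Top2a (chr11:99024160-99024359, minus strand), Cdc20 (chr4:118437314-118437513, minus strand) and Plk1 (chr7:122159265-122159464, plus strand) are members of several roles whose levels are given below. Racgap1 (chr15:99651627-99651826, minus strand) is the member whose level fell least with stage. They were chosen after the levels were seen, and Racgap1 holds a CHR and a CCAAT box as the others do.
Ccnb1: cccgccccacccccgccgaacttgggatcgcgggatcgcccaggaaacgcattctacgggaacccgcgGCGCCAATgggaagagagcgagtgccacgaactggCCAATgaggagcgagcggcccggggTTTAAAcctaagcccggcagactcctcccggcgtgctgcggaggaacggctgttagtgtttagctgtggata
Ccnb2: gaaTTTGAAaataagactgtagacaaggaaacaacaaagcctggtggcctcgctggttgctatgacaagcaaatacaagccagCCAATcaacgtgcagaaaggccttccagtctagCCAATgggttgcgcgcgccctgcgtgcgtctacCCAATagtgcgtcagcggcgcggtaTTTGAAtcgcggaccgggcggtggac
Top2a: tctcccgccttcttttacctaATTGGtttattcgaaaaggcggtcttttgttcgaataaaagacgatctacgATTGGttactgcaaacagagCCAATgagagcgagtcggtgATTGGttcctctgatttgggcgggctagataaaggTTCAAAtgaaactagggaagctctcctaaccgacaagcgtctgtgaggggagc
Cdc20: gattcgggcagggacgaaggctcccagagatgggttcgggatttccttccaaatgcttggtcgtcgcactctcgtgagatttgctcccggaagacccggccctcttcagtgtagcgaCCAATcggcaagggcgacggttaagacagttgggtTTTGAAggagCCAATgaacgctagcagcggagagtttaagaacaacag
Plk1: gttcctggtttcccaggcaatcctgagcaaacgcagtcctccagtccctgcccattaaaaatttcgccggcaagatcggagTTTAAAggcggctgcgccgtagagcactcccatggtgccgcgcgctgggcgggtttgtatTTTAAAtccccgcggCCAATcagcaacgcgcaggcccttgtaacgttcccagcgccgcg
Racgap1: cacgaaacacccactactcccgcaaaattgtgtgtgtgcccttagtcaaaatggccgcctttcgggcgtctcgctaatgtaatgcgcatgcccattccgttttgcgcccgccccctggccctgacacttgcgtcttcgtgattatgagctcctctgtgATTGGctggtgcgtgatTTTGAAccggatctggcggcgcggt

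Lmx1a lay between 63.8 and 85.5 RPKM (a read count scaled for transcript length and for library size) in the E10.5 GFP positive pools and between 0.116 and 3.27 in the GFP negative ones, and between 46.3 and 67.6 against 0.494 and 3.88 at E13.5, as the labels have it. Foxa2, Otx2 and En1, which with Lmx1a define this tissue, were above 4 RPKM in every pool. Depth was estimated from the steps between low values for pools at 1.27 to 6.01 M reads (M as the SI prefix mega) and for cells at 0.372 to 7.12 M reads, and these depths are rough. Red blood cell globins took 0.00537% to 9.59% of all RPKM in the E10.5 GFP negative pools, with 5 of 6 above 1%, up to 3.13% in the E13.5 GFP negative pools, with 2 of 6 above 1%, and no more than 0.0105% in GFP positive pools. In 2 of the E13.5 GFP negative pools, 4 and 6, the members were far below the other 4. The main results on the GFP difference at E13.5 and its change with stage are given with and without them, a choice made after seeing the data. These 2 pools were picked for low member values, and leaving them out tends to lower the members' GFP difference at E13.5. Falls with stage in GFP negative pools are given with them unless stated.

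Between E10.5 and E13.5 every member fell in both GFP classes. The summed level of the members went from 5880 to 7461 RPKM (median 6449) in the E10.5 GFP positive pools to 285.7 to 753 (median 603.9) at the later stage, and in the GFP negative pools from 3484 to 4607 (median 4236) to 114.98 to 553 (median 436.8). The ratio of the medians was 10.7 in GFP positive and 9.7 in GFP negative cells. In a limma fit of log2(RPKM + 1) over 15871 genes, which all 43 members entered, 43 of 43 were lower at E13.5 in each class at an adjusted p under 0.05. Of all genes tested, 29.6% were called lower in the GFP positive comparison and 26.9% in the GFP negative one. On the log2 scale the median member difference was -3.496 for the GFP positive class and -3.61 for the other, while the median of all genes was -0.14 and -0.11. The values of the 2 stages did not overlap for 43 members in GFP positive pools (17.1% of all genes, lower) and for 42 in GFP negative pools (14.3%). Kif20b was the exception in GFP negative pools. In bulk pools, fewer dividing cells and less RNA per cell cannot be told apart.

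**Figure D1:**
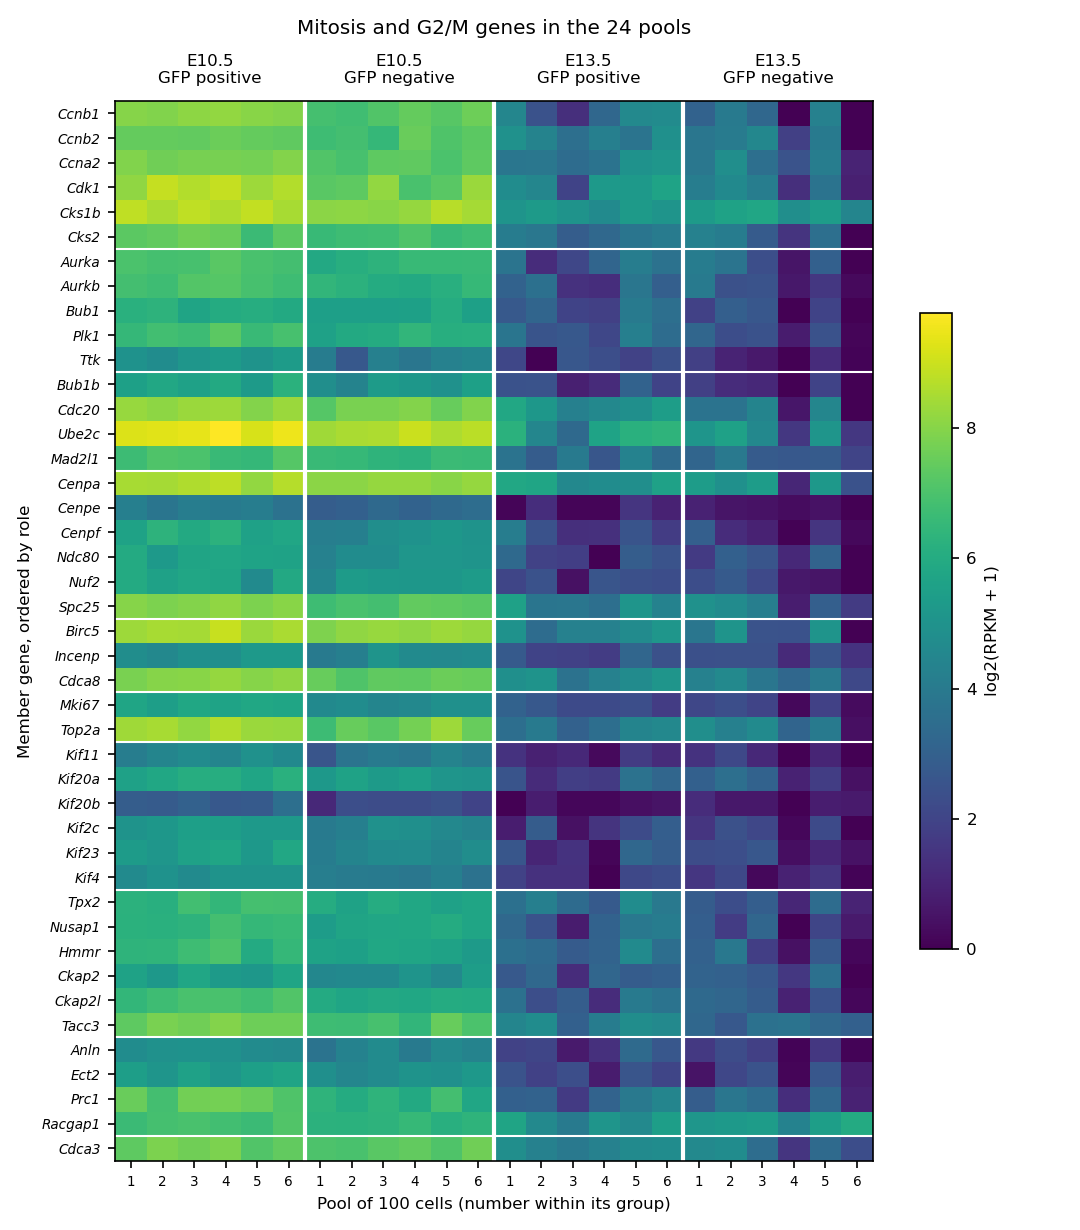
Level of each of the 43 members (lines, ordered by role) in each of the 24 pools (columns), as log2(RPKM + 1) on the colour scale. Nearly every line is brighter in the 12 E10.5 pools than in the 12 E13.5 pools, Kif20b is the darkest line at E10.5, and E13.5 GFP negative pools 4 and 6 are the darkest columns, with member sums of 114.98 and 119.25 RPKM.

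The engine of mitotic entry fell together. Ccnb1, which encodes cyclin B1, was at 243 to 295 (median 257) RPKM in the E10.5 GFP positive pools and 1.49 to 25.6 (median 14.8) at E13.5. In GFP negative pools it was at 107.5 to 194 (median 143.9) and 0 to 18.5 (median 7.95), with 0 RPKM listed in at least 1 pool. Its differences were -4.57 ± 0.62 (SE, adjusted p = 6.33e-07) and -4.75 ± 0.62 (SE, adjusted p = 4.83e-07), the steepest fall of any member in GFP positive pools. Ccnb2, the second B cyclin, went from 167.3 to 191 (median 175.2) to 10.8 to 29.9 (median 18.5) RPKM in GFP positive pools and from 90.5 to 185 (median 124.4) to 0 to 22.2 (median 14) in GFP negative pools. Cdk1, the kinase both cyclins activate, stood at 285 to 483 (median 399) and 124.7 to 318 (median 157.1) RPKM in the E10.5 GFP positive and negative pools and at 2.88 to 50.5 (median 31.4) and 0.801 to 23.6 (median 14.4) at E13.5. For neither gene did the stages overlap in either class. Cks1b and Cks2 encode the small subunits that bind Cdk1. Cks1b was at 356 to 471 (median 419) and 264 to 422 (median 287) RPKM at E10.5 and still 24.7 to 39.3 (median 32.1) and 21 to 53.8 (median 39.9) at E13.5. Cks2 was at 100.96 to 201 (median 163.99) and 95.5 to 135.8 (median 106.98) RPKM at E10.5 and 6.38 to 16.1 (median 13.3) and 0 to 18.9 (median 8.46) at E13.5. Ccna2, the cyclin of late S phase and G2, fell by 3.63 and fell by 3.87 on the log2 scale in the 2 classes.

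The mitotic kinases and the checkpoint with its target complex followed. Plk1, a kinase of spindle assembly and cytokinesis, was at 90.5 to 158.3 (median 108.6) and 46.7 to 84.7 (median 65.8) RPKM in the E10.5 GFP positive and negative pools and at 3.28 to 17.7 (median 7.79) and 0.0851 to 8.44 (median 4.24) at E13.5. Aurka, the centrosome kinase, went from 114.7 to 154.9 (median 121.9) to 1.38 to 16.6 (median 9.99) RPKM in GFP positive pools and from 58.3 to 96.8 (median 86.4) to 0 to 16 (median 5.54) in GFP negative pools. Aurkb, the kinase of the chromosomal passenger complex, went from 105.2 to 146.8 (median 118.02) to 1.45 to 13.3 (median 7.04) and from 59.5 to 92.8 (median 73.5) to 0.185 to 14.8 (median 3.14). Aurkb fell by 4.25 ± 0.47 (SE) in GFP positive pools and fell by 4.33 ± 0.47 in GFP negative pools on the log2 scale, and the stages of all 5 kinases stood clear of each other in both classes. Bub1b, the checkpoint protein BubR1, was at 38.7 to 75.4 (median 51.9) and 19.8 to 45.5 (median 32.6) RPKM at E10.5 and 0.799 to 7.5 (median 3.7) and 0 to 2.95 (median 1.29) at E13.5. Cdc20, which carries substrates to the anaphase-promoting complex, was at 246 to 324 (median 313) and 144.3 to 248 (median 223) RPKM at E10.5 and 18.2 to 56.4 (median 31.4) and 0 to 21.3 (median 12.1) at E13.5. Ube2c, the ubiquitin-conjugating enzyme of that complex, had the highest level of all members at E10.5, 580.4 to 874 (median 661) and 333 to 512 (median 378) RPKM, and 9.23 to 81.6 (median 61.1) and 1.98 to 47.9 (median 28) at E13.5. Cdc20 fell by 3.19 ± 0.54 (SE) in GFP positive pools and fell by 4.88 ± 0.54 in GFP negative pools (adjusted p = 1.65e-05 and 3.53e-08), the widest gap between the classes of any member. Without E13.5 GFP negative pools 4 and 6 it fell by 3.62 in GFP negative pools, and the gap was not the widest.

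Kinetochore, passenger and chromosome genes covered a wide range of levels. Cenpa, the histone H3 variant of the centromere, was at 294 to 447 (median 374) and 264 to 301 (median 281) RPKM in the E10.5 GFP positive and negative pools, and at 22.9 to 56.8 (median 37.5) and 1.06 to 41.7 (median 32.1) at E13.5. Cenpf, a large kinetochore protein, was at 47.5 to 78.9 (median 57.6) and 17.2 to 35.1 (median 28.9) RPKM at E10.5 and 1.47 to 16.6 (median 3.43) and 0.0298 to 6.7 (median 1.16) at E13.5. Ndc80, the microtubule-binding subunit of the kinetochore, was at 37.7 to 62.1 (median 50.6) and 18.7 to 34.4 (median 29.2), then 0 to 9.18 (median 3.71) and 0 to 7.6 (median 3.6). All 6 centromere and kinetochore members fell by between 3.31 and 3.68 on the log2 scale in GFP positive pools, the narrowest range of any role with more than 4 members. Birc5, or survivin, of the passenger complex was at 318 to 494 (median 356) and 232 to 319.6 (median 294) RPKM at E10.5 and at 10 to 34.2 (median 22) and 0 to 32.8 (median 8.93) at E13.5, and in GFP negative pools it fell by 5.01 ± 0.52 (SE, adjusted p = 1.44e-08), more than any other member. Incenp, the scaffold of the same complex, went from 22.4 to 37.3 (median 28.7) and 15 to 31.9 (median 24.1) RPKM to 2.33 to 8.29 (median 3.59) and 1.22 to 4.81 (median 4.27), and fell by 2.604 and fell by 2.49 in the 2 classes. Top2a, the topoisomerase that untangles sister chromatids, was at 289 to 403 (median 323) and 103.3 to 326 (median 182) RPKM at E10.5 and at 7.22 to 22.9 (median 12.8) and 0.334 to 27.4 (median 16.5) at E13.5. Mki67, the gene of the proliferation marker Ki-67, was at 43.2 to 56.2 (median 52.6) and 20.9 to 29 (median 25.1) RPKM, then 2.35 to 7.37 (median 3.84) and 0.145 to 4.08 (median 2.87).

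The motor and cytokinesis genes held the 2 members that fell least in GFP negative pools, Racgap1 and Kif20b. Kif11, the motor that pushes spindle poles apart, was at 16.9 to 30.1 (median 22.6) and 5.04 to 19.7 (median 14.2) RPKM in the E10.5 GFP positive and negative pools and 0.179 to 2.24 (median 1.25) and 0 to 3.36 (median 1.08) at E13.5. Kif23, a motor of the central spindle, was at 34.4 to 57.5 (median 43.6) and 16 to 26.5 (median 22.3), then 0.0974 to 8.74 (median 3.4) and 0.288 to 5.25 (median 2.42). Kif20b, a motor of late cytokinesis, was the lowest member at E10.5 and fell by 2.62 ± 0.27 (SE) in GFP positive pools but fell by 1.39 ± 0.27 in GFP negative pools (adjusted p = 5.13e-09 and 9.88e-05). Tpx2, which activates Aurka on the spindle, went from 71.1 to 117.6 (median 100.5) and 46.9 to 64.7 (median 54.5) RPKM to 5.75 to 26.3 (median 12.9) and 0.98 to 9.88 (median 5.09). Nusap1, a microtubule-bundling protein, went from 72.1 to 113.5 (median 84.7) and 41.4 to 64.4 (median 53.5) to 0.664 to 16.2 (median 8.21) and 0 to 8.38 (median 2.7). Both spindle genes kept higher medians in the GFP positive pools at each stage. Prc1, which crosslinks the central spindle, went from 115.01 to 211 (median 184) and 54.2 to 115.6 (median 71.4) RPKM to 2.15 to 20.8 (median 7.52) and 0.902 to 13.3 (median 7.46), and Anln, the contractile-ring protein anillin, from 23.5 to 30.9 (median 27.7) and 12.1 to 25 (median 19.4) to 0.631 to 9.42 (median 2.98) and 0.0606 to 3.89 (median 2.04). Racgap1, a regulator of cytokinesis, was at 99.1 to 137.3 (median 114.1) and 71.5 to 92.3 (median 77.5) RPKM at E10.5 and at 15.4 to 50.6 (median 28.5) and 19.2 to 62.6 (median 39.1) at E13.5. It fell by 1.92 ± 0.23 (SE) in GFP positive pools and fell by 1.05 ± 0.23 in GFP negative pools (adjusted p = 7.85e-08 and 0.000438), the least of all 43. With Cks1b it held the 2 highest member medians in the E13.5 GFP negative pools. A fit without the 7 pools whose globins passed 1% of RPKM leaves 1 E10.5 GFP negative pool, assumed to vary like the other groups. There its difference in GFP negative cells was -1.37 (adjusted p = 0.0771), larger in size and not called.

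The members not yet described fell within the same bounds. The checkpoint kinase Bub1 fell by 3.15 in GFP positive pools and fell by 4.04 in GFP negative pools on the log2 scale, and Mad2l1, which holds Cdc20 back until chromosomes are attached, fell by 3.37 and fell by 3.60. Nuf2 and Spc25, partners of Ndc80 at the kinetochore, fell by 3.56 and fell by 3.599 in GFP positive pools. The kinesins Kif2c, Kif4 and Kif20a fell by 3.496, fell by 3.38 and fell by 3.57 there. The spindle proteins Ckap2 and Ckap2l fell by 2.76 and fell by 3.86, and Ect2, the exchange factor that Racgap1 binds, fell by 3.41. Ckap2 was among the members that fell least in both classes.

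Pools of 1 group differed more from each other at E13.5 than at E10.5 on these genes. The median over members of the SD of log2(RPKM + 1) was 0.23 and 0.27 in the E10.5 GFP positive and negative pools, below the 0.40 and 0.43 of all genes tested. At E13.5 it was 0.76 and 1.21, above the 0.47 and 0.44 of all genes. No member was listed at 0 in any E10.5 pool. In the E13.5 GFP negative group, pools 4 and 6 listed 7 and 14 of 43 members at 0, and only 19 and 10 reached 1 RPKM, while the other 4 pools listed none at 0 and had 38 to 41 at 1 RPKM or more. The S-phase sum was 317 RPKM in pool 4 and 261.1 in pool 6, against 308.9 to 439.6 in the other 4, so pool 4 lay inside that range and pool 6 below it. The progenitor marker sums of these pools, 1058 and 621.2 RPKM, lay inside the 615.2 to 1548 of the others. The part of the sampling of 100 cells in this spread was not tested.

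**Figure D2:**
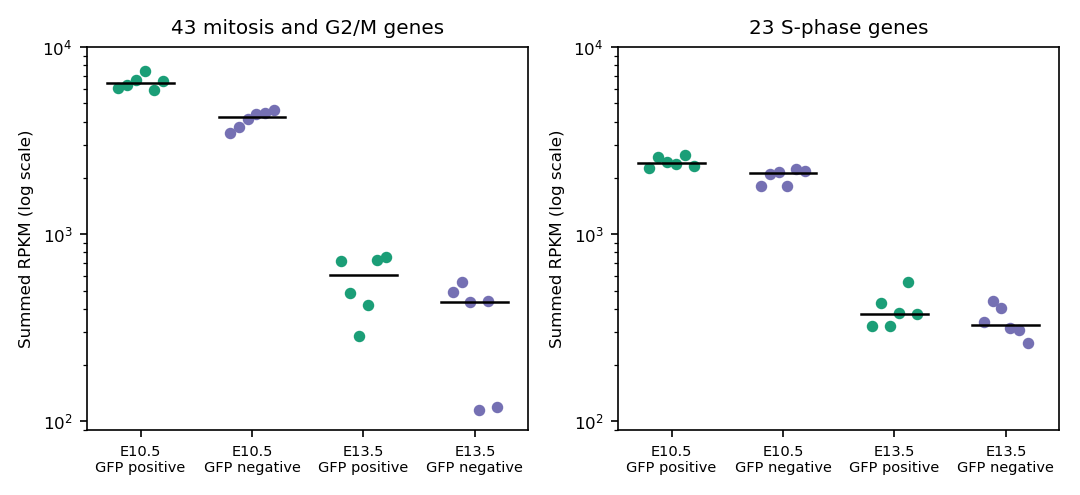
Summed RPKM of the 43 members (left) and of 23 S-phase genes (right) in each pool, on a log axis, with 6 pools per group and the median as a bar. The members span 114.98 to 753 RPKM across the E13.5 pools and the S-phase genes 261.1 to 558.7.

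Other cell cycle genes that are no members were lower at E13.5 as well. Of 23 S-phase genes (the Mcm helicase, Pcna, ribonucleotide reductase and others), 23 were called lower in each class, with median differences of -2.803 and -2.997 in the GFP positive and negative classes. Of 65 other genes of mitosis, 61 were called lower in GFP positive pools (median -3.03), and 60 lower and 1 higher in GFP negative pools (median -2.60).

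At E10.5 all 43 members were higher in the GFP positive pools than in the GFP negative pools, by amounts between 0.304 (Cdca3) and 1.198 (Cenpf) with a median of 0.72 on the log2 scale. The sums did not overlap, 5880 to 7461 against 3484 to 4607 RPKM, a ratio of medians of 1.52. The fit over all 24 pools called 5 members higher and none lower, where 4.51% of all genes were called higher and 8.64% lower. At an unadjusted p under 0.05 there were 15 members, all higher, and 24.8% of all genes. The values of the groups did not overlap for 22 members, all higher, where 3.33% of all genes were higher and 4.26% lower without overlap. The count of calls depended on the pools in the fit. A fit on the 12 E10.5 pools alone, over 13854 genes, called 38 of 43 members higher, where 6.81% of genes in that fit were called higher and 8.6% lower, and the 5 not called were Nuf2, Incenp, Mad2l1, Cdca3 and Anln. A fit without E13.5 GFP negative pools 4 and 6, which keeps all 12 E10.5 pools and the 15871 genes, called 13 members higher, where 4.76% of genes were called higher and 8.54% lower. These fits differ from the first in the spread, in its degrees of freedom and, for the former, in the genes tested, and which of these moved the count was not tested.

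The 5 members called at E10.5 came from 5 roles. Kif20b was at 5.39 to 10.8 (median 6.22) RPKM in GFP positive and 1.16 to 4.37 (median 3.82) in GFP negative pools, a difference of 0.89 ± 0.27 (SE, adjusted p = 0.0239). Mki67 was at 43.2 to 56.2 (median 52.6) against 20.9 to 29 (median 25.1) RPKM, a difference of 1.005 ± 0.30 (SE, adjusted p = 0.0263). The kinase Ttk (Mps1), which recruits checkpoint proteins to kinetochores, was at 25.8 to 40.4 (median 33.1) against 5.51 to 20.6 (median 17.2) RPKM, a difference of 1.16 ± 0.38 (SE, adjusted p = 0.0405). In each of these genes the lowest GFP positive pool was above the highest GFP negative pool. The kinetochore motor Cenpe was at 11.8 to 17.5 (median 15.9) against 6.43 to 10.2 (median 8.24) RPKM (difference 0.81 ± 0.26 SE, adjusted p = 0.0389), again without overlap. Tacc3, a spindle protein that works with Aurka, was at 163.3 to 248 (median 200.04) against 85.4 to 178.2 (median 113.1) RPKM (difference 0.79 ± 0.24 SE, adjusted p = 0.026), and here the groups overlapped. Leaving out 1 pool at a time, in 12 fits, ended the call of Cenpe and of Ttk in 8 fits each, of Tacc3 in 5, of Mki67 in 3 and of Kif20b in 2. Cenpf had the largest difference but was not called in the fit over all pools (1.198 ± 0.42 SE, adjusted p = 0.0621). Neither was Prc1, the next in size (1.19 ± 0.42 SE, adjusted p = 0.0658). The limma fit on the E10.5 pools alone called both higher at the same differences (adjusted p = 0.000711 and 0.000468). So did the fit without E13.5 GFP negative pools 4 and 6 (adjusted p = 0.0381 and 0.0109). By role, leaving out the single gene Cdca3, the median difference ran from 0.395 in the passenger complex to 0.84 in the mitotic kinesins and 0.93 in the pair of chromosome structure genes, Mki67 and Top2a, and 4 of 5 kinases, 4 of 6 kinetochore genes, 4 of 6 kinesins and 4 of 6 spindle genes had groups that did not overlap.

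The E10.5 GFP negative pools differed from the positive ones in markers of other cells. The sum over 12 neuron markers was 1676 to 3121 RPKM in GFP negative against 345.9 to 631.4 in GFP positive pools, and 12 of 12 were called lower in GFP positive pools. Mesenchyme markers (8 genes) summed to 118.5 to 294 against 6.38 to 32.96 RPKM, microglia and macrophage markers (9 genes) to 0 to 641.7 against 0 to 1.14, and endothelial markers (6 genes) to 2.33 to 70.7 against 0.872 to 3.81. The 8 progenitor markers had overlapping sums of 2750 to 3555 in GFP negative and 2983 to 3535 RPKM in GFP positive pools, but 3 of them, Hes1, Sox2 (1.09 ± 0.30 SE, adjusted p = 0.0123) and Sox9 (0.59 ± 0.12 SE, adjusted p = 0.000898), were called higher in GFP positive pools and 1, Fabp7, lower (-1.96 ± 0.38 SE, adjusted p = 0.000544), with a median difference of 0.51. The 23 S-phase genes summed to 1804 to 2224 in GFP negative and 2262 to 2641 RPKM in GFP positive pools, which do not overlap, with a ratio of medians of 1.13 against 1.52 for the members and a median difference of 0.21. GFP negative pool 4, with globins at 0.00537%, had a member sum of 4369 RPKM, below all 6 GFP positive pools. The same pool had the highest neuron marker sum at E10.5, 3121 RPKM. Its mesenchyme and microglia marker sums were 243.1 and 260.1 RPKM. The part of these other cells in the difference was not tested. A fit without the pools above 1% globin, 5 at E10.5 and 2 at E13.5, has 1 E10.5 GFP negative pool, assumed to vary like the other groups. In it 42 of 43 differences were above 0 and 0 were called, and with 1 pool on one side it says nothing about how stable the calls are. Leaving out any of GFP negative pools 1 to 4 or GFP positive pools 1, 3, 4, 5 or 6 brought the count to between 1 and 3.

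At E13.5 the difference rested largely on GFP negative pools 4 and 6. With all pools 40 of 43 members were higher in GFP positive pools, and the median difference was 0.85 on the log2 scale, and sums of 285.7 to 753 RPKM in GFP positive and 114.98 to 553 in GFP negative pools overlapped, with a ratio of medians of 1.38. The fit called 5 members higher and none lower, where 3.42% of genes were called higher and 3.74% lower. At an unadjusted p under 0.05 there were 22 members, all higher, and 20.1% of all genes. No member had groups that did not overlap, where 1.82% of genes were higher and 2.18% lower without overlap. Cks1b (-0.16), Kif20b (-0.34) and Racgap1 (-0.34) had a difference below 0, and none of the 3 was called. Of the 65 other mitosis genes, 49 had a difference above 0 and 16 below, with a median of 0.27. The ratio of the medians of their sums was 0.963, against 1.38 for the members. Without GFP negative pools 4 and 6, 28 members were above 0 and 15 below, the median difference was 0.087, and 2 members were called higher, where 2.55% of genes were called higher and 2.97% lower. The 4 remaining GFP negative pools had member sums of 432.8 to 553 RPKM, inside the GFP positive range, and the ratio of medians was 1.3.

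Cdc20 and 3 spindle genes were among those called at E13.5. Cdc20 was at 18.2 to 56.4 (median 31.4) RPKM in GFP positive and 0 to 21.3 (median 12.1) in GFP negative pools, a difference of 2.21 ± 0.54 (SE, adjusted p = 0.0098), the largest of all members. GFP negative pools 4 and 6 were at 0.501 and 0 RPKM and the other 4 at 12.05 to 21.3, and without these 2 pools the difference was 0.948 ± 0.23 (SE, adjusted p = 0.0149). Tpx2 was at 5.75 to 26.3 (median 12.9) against 0.98 to 9.88 (median 5.09) RPKM, a difference of 1.53 ± 0.34 (SE, adjusted p = 0.00477). The hyaluronan receptor and spindle protein Hmmr was at 6.05 to 24.6 (median 10.2) against 0.117 to 14.1 (median 4.11) RPKM, a difference of 1.51 ± 0.44 (SE, adjusted p = 0.0325). In all 3 the upper GFP negative pools reached into the GFP positive range. Tacc3 was at 7.02 to 26.5 (median 21.8) against 5.4 to 12.2 (median 8.8) RPKM, a difference of 1.001 ± 0.24 (SE, adjusted p = 0.0081), and was the member called at both stages. Its GFP negative pools 4 and 6, at 12.2 and 7.02 RPKM, were not below the rest, and without them the difference was 1.046 ± 0.27 (SE, adjusted p = 0.0182). Cdca8, or borealin, of the passenger complex was at 12 to 33.6 (median 26.8) against 3.34 to 23.1 (median 13.9) RPKM, a difference of 0.95 ± 0.28 (SE, adjusted p = 0.0365). Tpx2 (0.91, adjusted p = 0.0536), Hmmr (0.65, adjusted p = 0.28) and Cdca8 (0.45, adjusted p = 0.238) were not called without pools 4 and 6. By role, median differences ran from 0.29 in the kinesins to 1.22 in the checkpoint and anaphase-promoting complex genes, and without pools 4 and 6 from -0.29 in the kinesins to 0.55 in the spindle genes. The fit on the 12 E13.5 pools alone called Tpx2 only, where it called 3.24% of genes higher and 3.62% lower, and leaving out 1 pool moved the count to 10 (GFP negative pool 1, GFP positive pool 3), 9 (GFP negative pool 2) or 3 (GFP negative pool 4 or 6, GFP positive pool 1 or 5). In these 12 fits Hmmr and Cdca8 each lost their call in 6 and Tpx2, Cdc20 and Tacc3 in none. The GFP positive pools also had the higher progenitor marker sums, 1520 to 2277 against 615.2 to 1548 RPKM, with 7 of 8 markers called higher, and the part of this in the member differences was not tested.

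**Figure D3:**
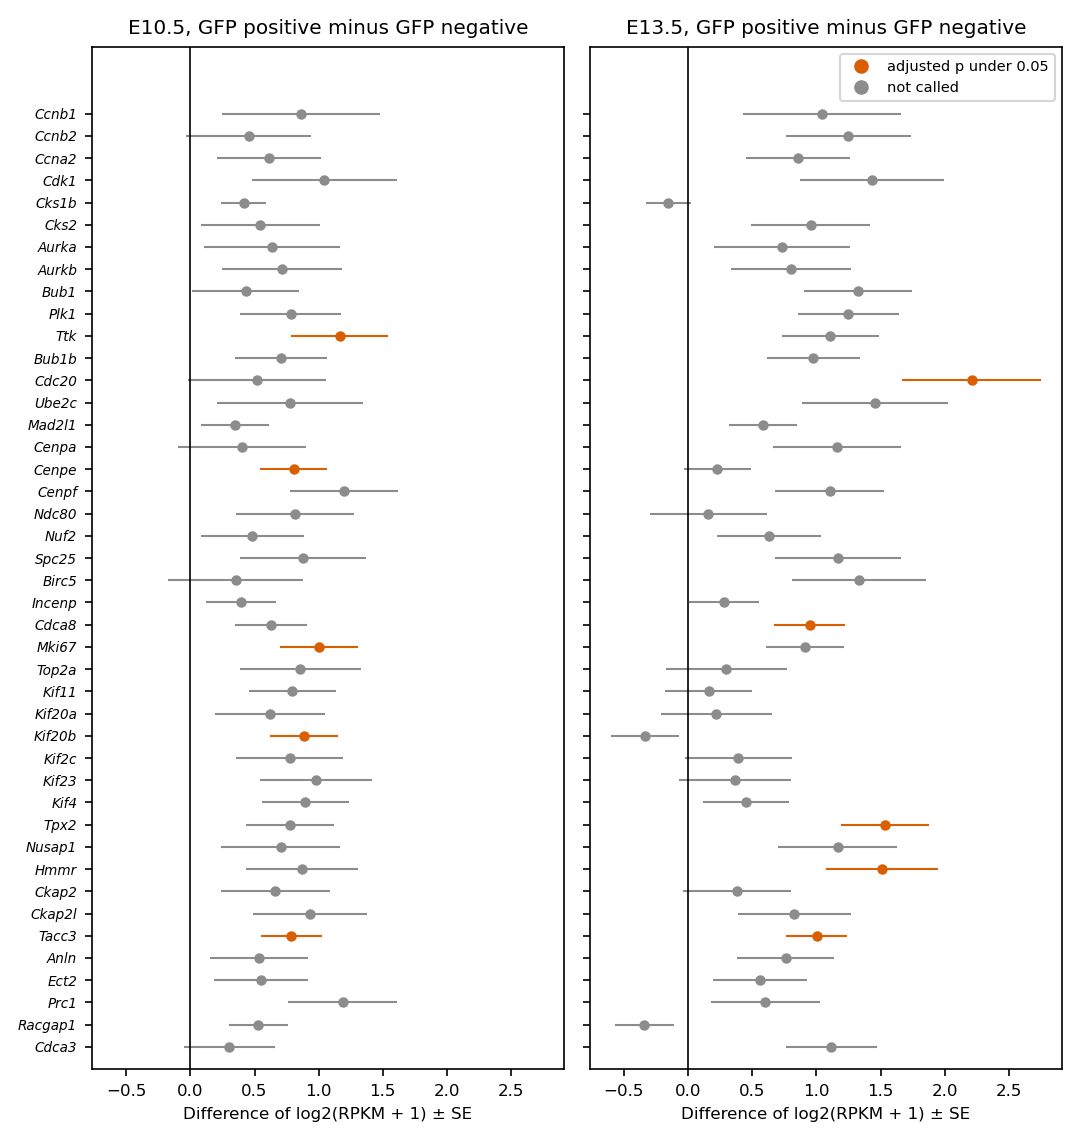
Difference of log2(RPKM + 1) between GFP positive and GFP negative pools for each member at E10.5 (left) and E13.5 (right), with the standard error of the fit over 24 pools and 6 pools per group. All 43 points lie above 0 in the left plot, and 40 in the right one, where 28 would without GFP negative pools 4 and 6.

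The change of the GFP difference between the stages was tested directly. No member was called by limma, against 3.93% of genes called with a larger and 1.9% with a smaller difference at E13.5. At an unadjusted p under 0.05 there were 4 members, against 18.5% of all genes. Cdc20 had a larger difference at E13.5 (1.69 ± 0.76 SE, adjusted p = 0.226), and Kif20b (-1.22 ± 0.38 SE, adjusted p = 0.0523), Racgap1 (-0.87 ± 0.32 SE, adjusted p = 0.124) and Cks1b (-0.57 ± 0.25 SE, adjusted p = 0.202) had smaller ones. The 6 kinesins all had a negative value, with a median of -0.53, whereas the 4 checkpoint and anaphase-promoting complex genes all had a positive one, with a median of 0.47. Over all 43 members 25 values were positive at a pseudocount of 1, 31 at 0.1 and 12 at 5, so the split of signs depended on the pseudocount. Without E13.5 GFP negative pools 4 and 6, 6 values were positive and 37 negative, the checkpoint genes had a median of -0.15 and the kinesins of -1.11, and 3 members, Cks1b (-0.87, adjusted p = 0.00852), Top2a (-1.45, adjusted p = 0.017) and Kif20b (-1.38, adjusted p = 0.0373), were called with a smaller difference at E13.5, where 3.49% of genes were called larger and 1.77% smaller. Cdc20 was then at 0.43 (adjusted p = 0.522). Pools 4 and 6 were picked for low member values, and leaving them out tends to lower the E13.5 difference. The 3 calls are therefore no independent test. Kif20b was called with a pseudocount of 5, after quantile normalization and without the variance trend, and 1 or 2 members were called without E10.5 GFP negative pool 5, E13.5 GFP negative pool 4 or 6, or E13.5 GFP positive pool 1 or 2.

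Single cells gave the fall with stage cell by cell. A member was taken as present in a cell at an RPKM of at least 10. At E10.5, 75.2% of cells had at least 10 members present, with an exact 95% Clopper-Pearson interval of 67.1% to 82.2%, and 34 cells had fewer. Later it was 16 of 90 cells (17.8%, 10.52% to 27.3%) for E11.5, 21 cells (11.8%, 7.45% to 17.47%) for E12.5 and 7 cells (4.83%, 1.96% to 9.69%) for E13.5. These intervals cover counting error only, and no test was made because each stage is 1 sample. The E10.5 interval lay above those of the later stages. The per-cell mean of log2(RPKM + 1) over the 43 members had a median of 3.51 (quartiles 1.83 and 6.31) for E10.5, 0.24 (0.07 and 0.48) for E11.5, 0.21 (0.08 and 0.36) for E12.5 and 0.17 (0.04 and 0.28) for E13.5. At E12.5, 12 of 63 cells with titles starting with C (19.05%) and 9 cells with titles starting with F (7.83%) had at least 10 members, and the labels do not say what the letters mean.

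**Figure D4:**
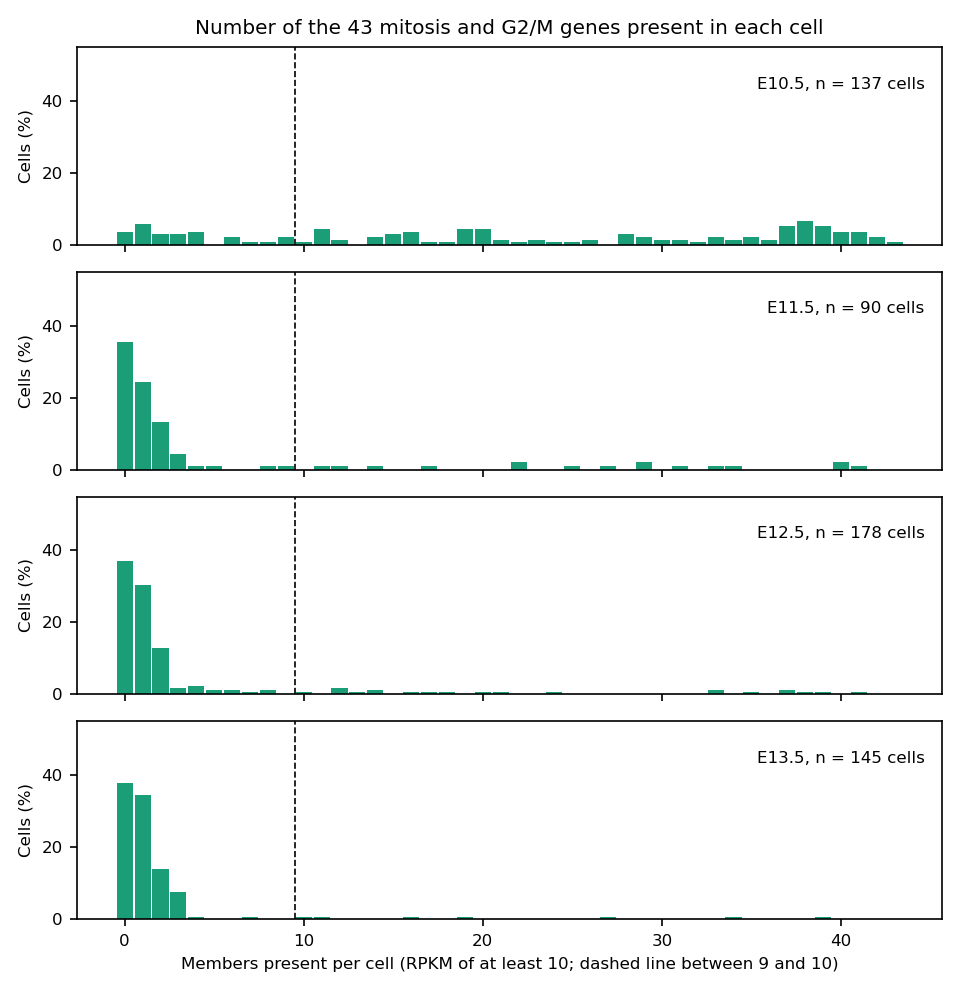
Share of the cells of each stage (percent) by the number of the 43 members present at an RPKM of at least 10, with a dashed line at the limit of 10 members. E10.5 cells spread from 0 to 43 members, while at the later stages most cells have 0 to 2 and a small number lie above 10.

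The number of members per cell ran over the whole range at E10.5 and was split at later stages. At E10.5 the median cell had 20 members, 52 cells (37.96%) had 30 or more, 17 (12.4%) had 0 to 2, and 13 lay near the limit with 8 to 12. At E13.5, 86.2% of cells had 0 to 2 members and 2 lay near the limit. In the cells with at least 10 members the summed level had medians of 5940, 5780, 9180 and 5950 RPKM from the first to the last stage. The cells were picked by these same values, which left out cells with low levels at every stage, so the medians do not show whether such cells became weaker. In the cells picked, the median number of members was 30, 28, 20 and 19, and the median per-cell mean 4.95, 4.84, 3.45 and 3.53 on the log2 scale. The 7 such cells at E13.5 had 10 to 39 members.

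Every member was present in fewer cells at each later stage than at E10.5. The median member was present in 51.8%, 13.3%, 7.87% and 3.45% of cells from the first to the last stage. In that order of stages, Cks1b was present in 91.2%, 32.2%, 28.7% and 24.1% of cells, the highest share at every stage. Racgap1 was present in 62.8%, 20%, 21.3% and 20%, flat after E11.5, whereas 31 of 43 members were under 5% at E13.5. Cyclins and their kinase were present in similar shares, with Ccnb1 in 57.7%, 11.1%, 6.74% and 4.14%, Ccnb2 in 56.9%, 15.6%, 8.43% and 4.14% and Cdk1 in 64.2%, 16.7%, 7.87% and 3.45%. Cks2 was present in 66.4%, 16.7%, 10.7% and 7.59%.

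The other named members had their highest share at E10.5 too, and of those given here Nusap1 was the one whose share did not fall at each step. Among kinases, Plk1 was present in 51.1%, 10%, 6.18% and 2.76% of cells, Aurka in 50.4%, 10%, 6.74% and 4.14% and Aurkb in 53.3%, 7.78%, 5.62% and 0.69%, which ends at 1 cell. Cdc20 was present in 54%, 14.4%, 10.7% and 5.52%, Ube2c in 60.6%, 17.8%, 11.8% and 4.14% and Bub1b in 40.1%, 12.2%, 7.3% and 2.07%. Of the kinetochore genes, Cenpa was present in 71.5%, 16.7%, 12.9% and 7.59%, Cenpf in 42.3%, 13.3%, 5.06% and 2.76%, Ndc80 in 38%, 7.78%, 5.06% and 2.76% and Cenpe in 16.1%, 7.78%, 3.93% and 0.69%, the lowest of that role, level with Ndc80 at E11.5. Birc5 was present in 69.3%, 17.8%, 12.4% and 3.45% and Incenp in 55.5%, 15.6%, 7.3% and 6.9%. Top2a was present in 67.2%, 13.3%, 9.55% and 5.52% and Mki67 in 50.4%, 15.6%, 7.87% and 2.76%. Kif11 was present in 38.7%, 12.2%, 3.93% and 2.76%, Kif23 in 36.5%, 14.4%, 5.62% and 2.07%, Tpx2 in 58.4%, 15.6%, 10.1% and 4.83% and Nusap1 in 46.7%, 7.78%, 7.87% and 2.07%. The cytokinesis genes Prc1 and Anln were present in 49.6%, 15.6%, 11.8% and 3.45% and in 36.5%, 6.67%, 2.25% and 1.38%. A member that is absent from a cell at this limit is not shown to be silent, since depth is limited. The estimated depth had a median of 1.25 M reads per cell at E10.5, 0.693 M at E11.5, 1.36 M at E12.5 and 1.68 M at E13.5.

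Cells were split by Sox2, a progenitor gene, and Stmn2, a neuron gene. Among cells with Sox2 and not Stmn2, at least 10 members were present in 46 of 53 (86.8%), 8 of 11 (72.7%), 4 of 8 and 1 of 6 (16.7%, 0.421% to 64.1%) from E10.5 to E13.5. Among cells with Stmn2 and not Sox2 the counts were 1 of 8, 1 of 52 (1.92%), 3 cells (2.27%) and 0. The last allows a share of up to 2.52%, by 3 counts of the total, and its exact interval reaches 3.05%. Cells with neither gene, 72 at the first stage and 20 at the last, had at least 10 members in 54 and 6, so 6 of the 7 E13.5 cells with at least 10 members lay outside the Sox2 gate. With Nes and Dcx in place of Sox2 and Stmn2, the progenitor gate had at least 10 members in 92 cells (85.98%) at E10.5, 13 of 27 (48.15%) at E11.5, 15 of 27 (55.6%) at E12.5 and 6 of 17 (35.3%) at E13.5, so this gate held 6 of the 7 E13.5 cells. The Dcx gate had 2 of 10, 3 of 43 (6.98%), 2 (1.83%) and 0 such cells in that order, and the last allows up to 2.8% by 3 counts, with an exact interval up to 3.39%. Median genes detected were 6085 and 5516.5 in the Sox2 and Stmn2 gates at E10.5, then 4934.5 and 4292 at E13.5.

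Cks1b and Racgap1 were present in neuron-gate cells more often than the other members. Over all stages 311 cells were in the neuron gate and 78 in the Sox2 gate, and the median member was present in 1.93% and 56.4% of them. Of these cells, 8 in the neuron gate and 53 in the Sox2 gate were from E10.5, so these shares mix gate with stage. Cks1b was present in 64 of the 311 (20.6%, 16.2% to 25.5%) and Racgap1 in 45 (14.5%, 10.8% to 18.9%), and 38 of 43 members were under 5%. Cdca8 (6.11%), Incenp (5.47%) and Cenpa (5.14%) were the other members above 5%. Among the E13.5 cells with fewer than 10 members, Cks1b was present in 30 (21.7%) and Racgap1 in 25 (18.1%), while the next member, Cdca8, was present in 6.52% and 13 members in none. These are also the 2 members with the highest E13.5 levels in GFP negative pools.

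**Figure D5:**
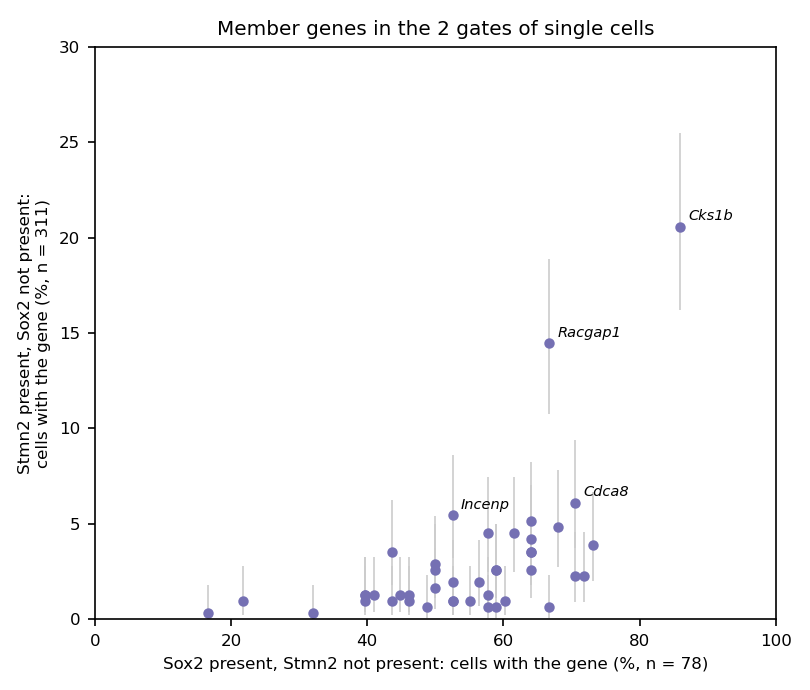
Share of cells with each member present in cells with Sox2 and not Stmn2 (x axis, 78 cells) and in cells with Stmn2 and not Sox2 (y axis, 311 cells), in percent, with exact 95% intervals on the y axis. Cks1b at 20.6% and Racgap1 at 14.5% stand above the other 41 members on the y axis. All stages are pooled, with 53 E10.5 cells on the x axis and 8 on the y axis, so gate and stage are mixed.

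Cells were also split by Lmx1a and by EGFP. At E10.5, 76 of 98 cells with Lmx1a (77.6%, 68.01% to 85.4%) and 27 of 39 without it (69.2%, 52.4% to 82.98%) had at least 10 members, and these intervals overlap. With and without Lmx1a the shares were 18.42% and 17.3% at E11.5 and 15.56% and 7.95% at E12.5. At E13.5 the counts were 3 of 73 (4.11%) and 4 of 72 (5.56%). Split by the EGFP transcript in place of Lmx1a, the shares with and without it were 79.6% and 61.8% at E10.5, 25.9% and 14.29% at E11.5, 24% and 7.03% at E12.5 and 10.3% and 2.83% at E13.5.

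The cells with at least 10 members carried progenitor markers. At E10.5, 100 had 3 or more of 8 progenitor markers and 3 did not, and from E11.5 on it was 16 of 16, 21 of 21 and 7 of 7. Of the same cells, 18 at E10.5, 7 of 16, 8 of 21 and 2 of 7 also had 3 or more of 12 neuron markers, and 50 at E10.5, 3 of 16, 3 of 21 and 0 of 7 had 3 or more of the 4 ventral midbrain markers. None of these cells at any stage had 3 or more markers of red blood cells, microglia, mesenchyme or endothelium. The same counts were not made for cells with fewer than 10 members, so no contrast with them is given. Among all cells, single progenitor markers were present in 30.7% (Hes5) to 99.3% (Vim) at E10.5 and 4.14% (Sox2) to 51.7% (Vim) at E13.5. At E10.5 each cell with at least 10 members also had at least 5 of the 23 S-phase genes, while 21 further E10.5 cells had the S-phase genes without 10 members. At E13.5, 5 cells had both, 8 the S-phase genes only and 2 the members only.

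Within the E10.5 cells the members rose and fell together to different degrees. Over 903 pairs, Spearman's rho across cells had a median of 0.49 and ran from 0.18 (Ccnb2 with Kif20b) to 0.79 (Cdc20 with Ube2c). Ube2c (0.83), Cks2 and Ccnb1 (0.82 each) followed the mean of the other members most closely, and Kif20b (0.49) and Cenpe (0.53) least. Members differed in the company they kept. Cks1b was present in 91.2% of E10.5 cells, which had a median of 23 other members, and Kif20b and Cenpe in 22 cells each, which had a median of 37. The per-cell mean also followed the number of genes detected, with a rho of 0.51, 0.56, 0.27 and 0.37 from the first to the last stage. The cells share library depth, and no p is given.

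The 10 genes outside the list that were most like the members' mean over the E10.5 cells, of 9125 genes present in at least 10% of all 550 cells, were Gm7856 (rho 0.84), Gm12856 (0.82), Gm15452 (0.81), Gm5593 (0.80), Kif22 (0.76), Fam64a (0.74), Gm10184 (0.73), Gtse1 (0.71), Kpna2 (0.70) and Hmgb2 (0.69). The chromokinesin Kif22, Fam64a and Gtse1 are among the 65 other mitosis genes. Gm7856, Gm12856 and Gm15452 are annotated processed pseudogenes, copies of a messenger RNA in the genome, and match the members Cdc20 (93.6% identity over 1512 bases), Ccnb1 (98.1% over 1294) and Cks2 (100% over 240). Gm15452 had a mean of 272 RPKM in the E10.5 GFP positive pools, above Cks2 itself. Reads of such pairs can be split between the copies, so the levels of these members are uncertain. In all, 14 members have a pseudogene copy of at least 90% identity over at least 200 bases in the annotation, and for 6 of them (Ccnb1, Cdc20, Cks2, Kif11, Plk1 and Prc1) a copy has its own row in the pool table. The others are Birc5, Cenpe, Cks1b, Mad2l1, Mki67, Ndc80, Racgap1 and Ube2c, whose copies have no row in the pool or single-cell table. What these copies do to the levels, those of Cks1b and Racgap1 included, was not tested. Ccna2, Ube2c, Kif20a, Kif4 and Prc1 overlap a gene on the opposite strand by more than 10% of their exon bases, and no source used here says whether reads were counted by strand, so these levels are uncertain as well.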

How the data were processed

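Smart-seq2 RNA-seq libraries of 24 pools of 100 cells and 550 single cells were used. The authors aligned with STAR 2.3.0 to mm10, per the submitters' processing notes. Which read counter and annotation were used is not given here. The deposited pool table holds RPKM of 23706 genes and the deposited single-cell table log2 values of 25489 genes, whose lowest value is that of log2(RPKM + 0.001). RPKM was recomputed from these. The EGFP transgene was not tested. No column of either table was left unused, and no 2 cell columns were identical.

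The tables hold no counts. Steps between low values gave whole reads (tolerance 0.05) for a median of only 27.5% of values, where chance gives 10%, so no count model was run and depths are rough. Without molecular identifiers, intervals cover counting error only.

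Genes reaching 1 RPKM in 6 or more pools were fitted as log2(RPKM + 1) with limma 3.58.1 in R 4.3.3, with 4 group means, all 24 pools, moderated variances with a trend and Benjamini-Hochberg adjustment over 15871 genes. The threshold for a call was an adjusted p of 0.05. A fold on this scale understates the change of low genes. The fit was run on simulated normal values with the same spread in every group. Spread that differs between groups, as seen for the members, was not simulated. Shares of cells carry exact 95% Clopper-Pearson intervals (scipy 1.17.1). Copies were found with blastn 2.17.0 among GENCODE vM21 transcripts.

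The 43 members, their roles, the other lists and the tests were chosen with earlier results of these data known. Named genes are a set of 24 spread over the roles, the 5 called members with the largest difference in each direction of a comparison, and the 10 genes most like the members' mean. Alternatives covered the pseudocount, the filter, scaling, the variance trend, the pools in the fit and leaving out each pool, and the fits without pools above 1% globin and without E13.5 GFP negative pools 4 and 6 were added after seeing the data. Ventral midbrain, progenitor, neuron, red blood cell, microglia, mesenchyme and endothelium marker lists were used for the sums.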

Additional observations from a re-analysis of the deposited data

Results flagged for a closer look

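In groups of 6 pools, the values of 43 members and their sum in 4 groups were searched for a pool standing far from the other 5, by Dixon's ratio of the gap to the range. Such a search marks about 1 in 20 sets by chance, or 8.8 here, and it marked 10. In the E10.5 GFP positive pools, pool 4 had the highest Aurka (154.9 RPKM, others 114.7 to 128.6) and the highest Birc5 (494 RPKM, others 318 to 374), and pool 6 had the highest Kif20b (10.8 RPKM, others 5.39 to 7.15). In the E10.5 GFP negative pools, pool 5 was high for Bub1 (64.6 RPKM, others 44.8 to 45.7), pool 1 low for Nuf2 (20.6 RPKM, others 34.8 to 40.1) and pool 4 high for Cks2 (135.8 RPKM, others 95.5 to 109.6). In the E13.5 GFP positive pools, pool 1 was high for Cenpf (16.6 RPKM, others 1.47 to 4.78) and pool 5 for Hmmr (24.6 RPKM, others 6.05 to 11.3). In the E13.5 GFP negative pools, pool 1 was high for Aurkb (14.8 RPKM, others 0.185 to 4.64) and for Cenpf (6.70 RPKM, others 0.0298 to 1.88). The member sum was not marked in any group, although GFP negative pools 4 and 6 lie together below the rest at E13.5.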

How the results depend on the processing

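The stage calls held for all 43 members in each GFP class under every setting in which they were refitted, except 42 in GFP negative pools without the pools above 1% globin. No called member difference reversed under any setting run. The E10.5 count of 5 members higher in GFP positive pools became 1 with a pseudocount of 0.1, 17 with 5, 3 with no filter, 3 after removing globin genes and rescaling, 38 with the 12 pools alone, 0 without the pools above 1% globin, 13 without E13.5 GFP negative pools 4 and 6, and 1 to 5 with 1 pool left out. The E13.5 count of 5 became 3 with no filter, 1 with the 12 pools alone, 3 without the pools above 1% globin, 2 without GFP negative pools 4 and 6, and 3 to 10 with 1 pool left out. The count of 0 for the stage by GFP term became 1 lower with a pseudocount of 5, with quantile normalization and with no trend, 3 lower without E13.5 GFP negative pools 4 and 6, and 0 to 2 with 1 pool left out. The 12-pool fits use fewer pools, other gene sets and their own spread, and the cause of these changes was not tested. Of single cells, the E10.5 share of 75.2% was 64.86% among cells with a middle number of genes detected and 54.01% at a limit of 20 members, and the E12.5 share of 11.8% was 6.18% at 20 members and 19.05% in cells with titles starting with C. No paired analysis was possible because the labels give the pools no replicate numbers that groups share. The 100 cells per pool and the 7 E13.5 cells with at least 10 members limit the precision at E13.5, and no detection limit was computed.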

Other observations

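Among the 65 other mitosis genes, 8 had a called excess in the E10.5 GFP positive pools (4.51% of all genes), with a median difference of 0.64 over the list. They include Aspm, the spindle-pole gene of microcephaly (1.08 ± 0.26 SE, adjusted p = 0.0043), Fam83d (1.41 ± 0.39 SE, adjusted p = 0.0136), Kif14 (1.02 ± 0.27 SE, adjusted p = 0.00946) and the condensin subunits Smc2 (0.71 ± 0.24 SE, adjusted p = 0.0483) and Smc4 (0.79 ± 0.26 SE, adjusted p = 0.039). At E13.5, 2 of the 65 were called higher in GFP positive pools and 1 lower, where 3.42% of all genes were called higher and 3.74% lower. The phosphatase Cdc25b, which activates Cdk1, was higher in GFP positive pools (1.495 ± 0.31 SE, adjusted p = 0.00209), as was the kinesin Kif15 (1.31 ± 0.33 SE, adjusted p = 0.0123). Without GFP negative pools 4 and 6, Kif15 was at 0.70 and not called (adjusted p = 0.103). Zwint, a kinetochore gene, was lower there (-0.62 ± 0.12 SE, adjusted p = 0.00119) with no overlap between the groups.

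Zwint was also the gene of that list called higher at E13.5 than at E10.5 in GFP negative pools (0.305 ± 0.12 SE, adjusted p = 0.0401), a call lost without E13.5 pools 4 and 6 (adjusted p = 0.117). Fzr1, Lmnb1 and Mad1l1 were not called with stage in either class. The GFP difference, positive minus negative on the log2 scale, went down from E10.5 to E13.5 for Hjurp, the chaperone of Cenpa, by -0.78 ± 0.22 (SE, adjusted p = 0.0325), for Bub3 by -0.64 ± 0.16 (SE, adjusted p = 0.013) and for Arhgap11a by -1.48 ± 0.41 (SE, adjusted p = 0.0302). Bub3 went from 0.295 to -0.34, Arhgap11a from 0.76 to -0.72 and Hjurp from 0.697 to -0.083, and of these 6 values the E10.5 one of Hjurp was called. These genes were named after their values were seen.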
